A study of Rattus norvegicus and Mus musculus with 24 samples.

Results

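The respiratory chain genes of the kidney were examined in Ctns KO and Ctns WT mice and rats, with the subunits encoded in the nucleus set against those encoded on mitochondrial DNA. Members were picked by symbol alone: rows whose name begins with MT-, NDUFA, NDUFB, NDUFC, NDUFS, NDUFV, UQCR, COX4 to COX8 or ATP5, together with SDHA, SDHB, SDHC and SDHD, and without the NDUFAF assembly factors. This gave 117 of 17376 symbols in the mouse table, 81 nuclear and 36 mitochondrial, and 91 of 14931 in the rat table, 79 nuclear and 12 mitochondrial. Both tables held 86 of them. The 36 of the mouse were 12 subunit genes, 2 rRNAs and 22 tRNAs, while the 12 of the rat were all subunit genes.

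Bulk RNA sequencing covered 4 Ctns KO and 4 Ctns WT mice on the C57BL/6 background and 8 Ctns KO and 8 Ctns WT Sprague-Dawley rats, the WT animals being littermates, with 1 library per animal. Both KO lines lack functional cystinosin, the lysosomal cystine transporter encoded by Ctns. The labels name no treatment. The age of the sequenced mice and rats is not given in the sources used here. The methods name kidney cortex, while the labels name cortex, proximal tubule cells and a microdissection of tubules, and the 2 descriptions could not be reconciled. Rat libraries carry the numbers 17 to 24 and 25 to 32, each range with 4 KO and 4 WT animals. What separates the ranges is not stated, so they are named here by number only. It could be age, sex, litter, batch or a placebo pellet of the kind given to rats elsewhere in the study, for example.

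The respiratory chain sits in the inner mitochondrial membrane and consists of complexes I to IV, which pass electrons from NADH and succinate to oxygen, and of complex V, the ATP synthase. Complexes I, III, IV and V combine nuclear subunits, made in the cytosol and imported, with subunits read from the circular mitochondrial genome; complex II is wholly nuclear. Mitochondrial genes are transcribed as long precursors from both strands and then cut, so their levels share a source. Proximal tubule cells are among the cells richest in mitochondria and depend on them for reabsorption.

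Depth was 19309371 to 44449845 reads in the mice and 24684097 to 40629873 in the rats. CTNS, the targeted gene, was at 0.319 to 0.342 in KO and 0.824 to 1.03 in WT mice on the table's scale (change of -0.52 in log2(value + 1), limma adjusted p = 0.000898), with no overlap. At such low values the added 1 makes this change smaller than that of the levels themselves. In the rats CTNS was at 16.8 to 22.2 CPM (reads scaled to a library of fixed size) in KO and 19.2 to 27.8 in WT (log2 change -0.22, edgeR adjusted p = 0.0511), with overlap, so the transcript level does not check the rat labels one by one. Proximal tubule markers summed to 14090 to 18950 CPM in the mice and 9726 to 16630 in the rats. The markers of the thick ascending limb and distal tubule summed to 2596 to 10870 CPM, and those of podocytes to 462.4 to 992.9, so the libraries held other nephron segments too.

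Mitochondrially encoded symbols took 17.7% to 22.4% of all rat reads, against 2.64% to 3.13% for all nuclear members together. In rats 17 to 24 the mitochondrial share was 21.4% ± 0.705 (SD, n = 4) in KO and 19.1% ± 1.54 in WT, and in rats 25 to 32 it was 20.04% ± 1.13 in KO and 20.8% ± 0.914 in WT. The nuclear share was 2.69% ± 0.048 in KO and 2.84% ± 0.077 in WT of the first range, and 2.94% ± 0.215 in KO and 2.82% ± 0.126 in WT of the second. In the mice the mitochondrial share was 8.97% ± 1.04 in KO and 9.42% ± 1.16 in WT, and the nuclear share was 2.48% ± 0.127 and 2.41% ± 0.143. The log2 ratio of mitochondrial to nuclear reads, which no scaling between libraries can alter, was 2.92 to 3.05 in KO and 2.63 to 2.86 in WT rats 17 to 24, without overlap. The second range gave 2.57 to 2.93 in KO and 2.84 to 2.94 in WT, with overlap.

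**Figure D1:**
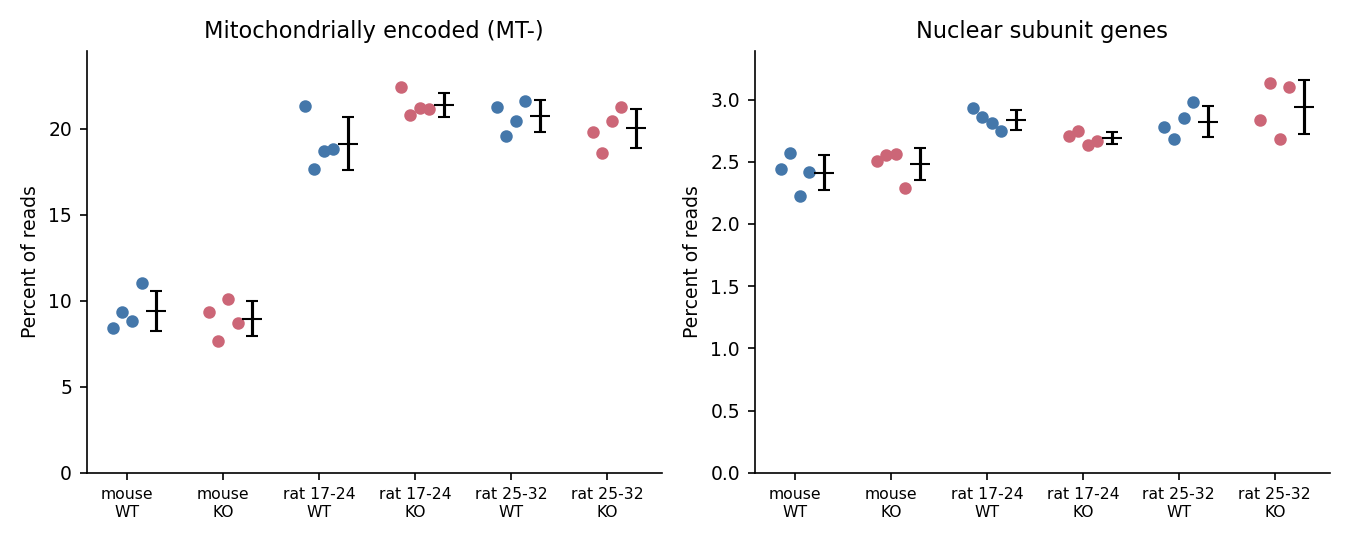
Percent of reads on mitochondrially encoded symbols (left) and on nuclear respiratory chain symbols (right), 1 point per animal, with the group mean and SD as a bar beside the points. Rats gave 17.7% to 22.4% of reads to the mitochondrial symbols and mice 7.68% to 11.0%.

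The first question was whether the loss of Ctns was accompanied by a change in these genes in each species. Over all 16 rats, 7 of 72 tested nuclear members were lower in KO (edgeR quasi-likelihood test, Benjamini-Hochberg adjusted p under 0.05 over all genes), 1 was higher, and none of the 12 mitochondrial members passed in either direction, nor did any reach an unadjusted p under 0.05 or pass in DESeq2. Of all tested genes 12.3% were called lower and 15.2% higher, so the nuclear share of 9.72% lower lay near the background and the 1.39% higher lay under it. The median log2 change was -0.03 over the nuclear and -0.02 over the mitochondrial members, against -0.02 over all genes. When libraries were scaled to their total without mitochondrial genes, 2 nuclear members were lower and 2 higher, the nuclear and mitochondrial medians became 0.07 and 0.09, and calls among all genes went from 1420 lower and 1760 higher to 638 and 3072; with upper quartile scaling 4 nuclear members were lower and all calls were 867 and 2329. Of the 79 nuclear members, ATP5PB, COX6A2, COX7A1, COX8BP, COX8C, NDUFA3 and NDUFS6 had too few reads to be tested over all rats. In the mice ATP5PB, NDUFA3 and NDUFS6 were at 492.8 to 583.2, 112.4 to 141.4 and 49.27 to 63.59 CPM. ATP5PD was tested in the rats at only 1.03 to 3.08 CPM, against 301.4 to 361.4 in the mice. UQCRH ran the other way, with 0 to 2 reads in the mice and 214.5 to 345.8 CPM in the rats. Why these rows differ between species was not tested. In bulk tissue, fewer cells of a type and less RNA per cell cannot be told apart.

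The 7 nuclear genes that fell belong to complexes I, II, III and V. SDHA, the flavoprotein of complex II that oxidises succinate, was at 755.1 to 924.0 CPM in KO (median 859.1) and 987.3 to 1174 in WT (median 1082), with every KO rat under every WT rat (log2 change -0.32, SE 0.06, edgeR adjusted p = 0.000632). ATP5F1A, the alpha subunit of the ATP synthase, was at 2354 to 2809 CPM in KO (median 2733) and 2896 to 3383 in WT (median 3152), again without overlap (log2 change -0.23, SE 0.06, edgeR adjusted p = 0.00563). NDUFS1, the iron-sulphur subunit of complex I, gave -0.22 (SE 0.06, edgeR adjusted p = 0.00823), and UQCRC2, a core protein of complex III, gave -0.22 (SE 0.06, edgeR adjusted p = 0.00786); the KO and WT ranges of both overlapped. SDHB, the iron-sulphur subunit of complex II, gave -0.17, and ATP5F1B and ATP5F1C, the beta and gamma subunits of the ATP synthase, gave -0.18 and -0.16. The call of ATP5F1B was lost on leaving out any 1 of 9 rats and that of ATP5F1C on leaving out any 1 of 4, while SDHA, ATP5F1A, NDUFS1, UQCRC2 and SDHB kept theirs without any 1 of the 16. Only SDHA and ATP5F1A also kept theirs under all 6 other settings. NDUFS1, UQCRC2, SDHB, ATP5F1B and ATP5F1C were not called with the total without mitochondrial genes. With upper quartile scaling SDHB, ATP5F1B and ATP5F1C were not called either.

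COX7A2L was the 1 nuclear member that rose. Also known as SCAF1, it joins complexes III and IV into supercomplexes. It was at 141.5 to 185.0 CPM in KO (median 159.3) and 113.4 to 157.5 in WT (median 130.7), with WT rat 31 above 3 KO rats (log2 change 0.29, SE 0.07, edgeR adjusted p = 0.00482). Its call held on leaving out any 1 rat and under all 6 other settings tried.

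Within the 2 number ranges the mitochondrial members stood on different sides of the nuclear ones. In rats 17 to 24, all 12 mitochondrial members had a log2 change above 0 (0.05 to 0.28, median 0.17) and 64 of 72 nuclear members had one below 0 (median -0.09), against a median of -0.002 over all genes. Only NDUFB8 passed the test there, where 2.19% of all genes were called lower and 5.07% higher; no mitochondrial member passed in edgeR, 4 of 12 were higher at an unadjusted p under 0.05, and DESeq2 called 1 higher; without WT rat 17 edgeR called 3 of them higher. Without WT rat 19 or WT rat 23, 2 or 3 nuclear members were lower. In rats 25 to 32, 5 of 12 mitochondrial members were lower and none higher, with a median of -0.22, while 9 of 74 nuclear members were lower and 2 higher, with a median of 0.02; of all genes 22.1% were called lower and 21.8% higher. These nuclear counts include COX6A2 and COX8BP, each of which passed the filter on low reads only through the group in which it was higher; leaving them out, 8 of 72 were lower and 1 higher. The mitochondrial share of 41.7% lower lay above that background and the nuclear share of 12.2% under it.

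The gap between the medians (mitochondrial minus nuclear) was 0.26 in rats 17 to 24 and -0.24 in rats 25 to 32. It ran from 0.21 to 0.30 in the first range and from -0.29 to -0.16 in the second over all settings and over each rat left out. Scaling a library shifts both medians by about the same amount, so the other scalings are no check of the gap, while the rats left out are. The medians themselves depended on scaling. When libraries were scaled to their total without mitochondrial genes, the median of all genes in rats 25 to 32 went from -0.01 to 0.14, and that of the nuclear members from 0.02 to 0.17. Calls among all genes then went from 2566 lower and 2534 higher to 1218 lower and 4048 higher, and mitochondrial calls in that range from 5 to 2, with MT-ND4L and MT-ND2 still called, while nuclear calls became 5 lower and 20 higher. Among all genes, calls in rats 17 to 24 went from 254 lower and 589 higher to 143 and 787.

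**Figure D2:**
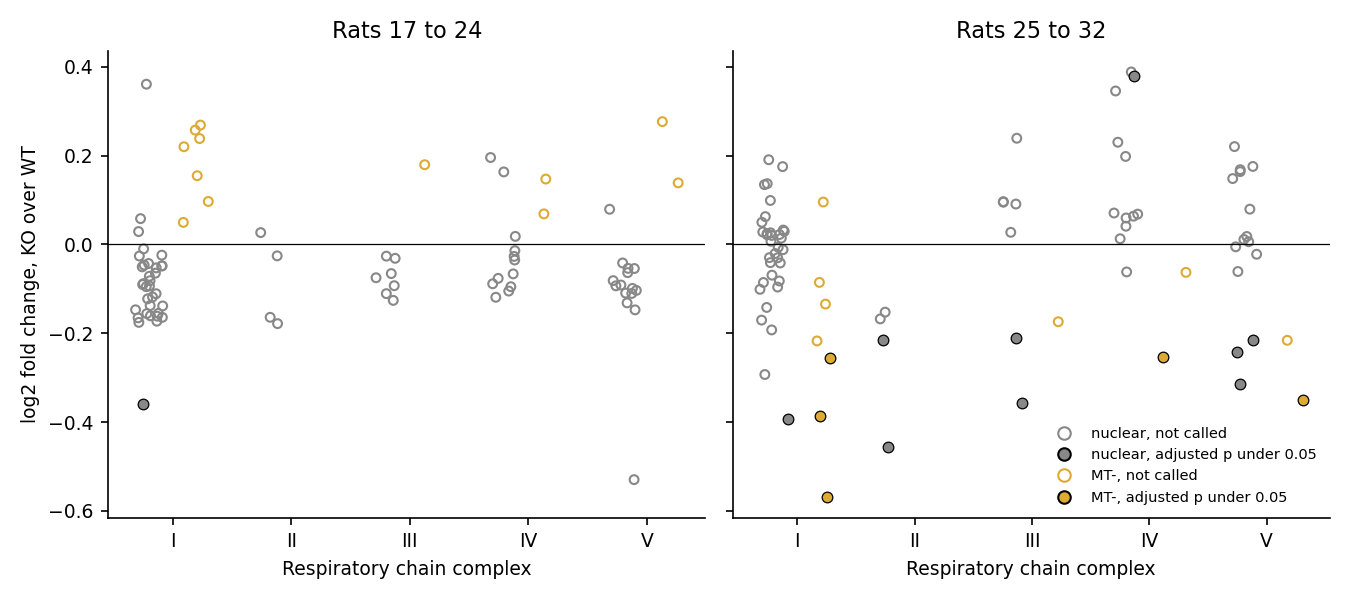
Log2 fold change of each nuclear (grey) and mitochondrial (yellow) member, KO over WT, by complex as assigned from the symbol, in rats 17 to 24 (left) and 25 to 32 (right). Filled points passed an edgeR adjusted p of 0.05, and 2 members with few reads, COX6A2 and COX8BP, are left out. Mitochondrial members lie above 0 at left and, with 1 exception, below 0 at right.

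A test of the difference between ranges was made in 1 fit of all 16 rats. The change was more negative in rats 25 to 32 for 6 of 12 mitochondrial members and 3 of 74 nuclear members, and more positive for none of either (edgeR interaction, where 3 nuclear members were more positive at an unadjusted p under 0.05 and no mitochondrial one was; scaling to the total without mitochondrial genes gave 5 more positive nuclear members). With that scaling, 4 mitochondrial members and 1 nuclear member were more negative, and calls among all genes went from 904 negative and 841 positive to 477 and 1575. Of all genes, 7.64% differed in the negative and 7.10% in the positive direction. The 3 nuclear genes were NDUFS1 (-0.34, SE 0.07, edgeR adjusted p = 0.00738), UQCRC2 (-0.28) and SDHA (-0.27). Counts rested in part on single animals: without KO rat 28 the mitochondrial count was 1, and without KO rat 18, KO rat 22 or WT rat 19 it was 3. Without KO rat 18 or KO rat 22 the nuclear count was 1, and without WT rat 31 or KO rat 30, 4 or 2 nuclear members were more positive. MT-ND4L and NDUFS1 kept their calls without any 1 of the 16 rats.

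Complex I has 7 subunits encoded on mitochondrial DNA, and in rats 25 to 32 they ranged from -0.57 to 0.10. MT-ND4L, a small membrane subunit, was at 570.2 to 633.1 CPM in KO and 415.8 to 609.8 in WT rats 17 to 24. In rats 25 to 32 its 4 KO values were 333.7, 356.4, 451.1 and 473.7 CPM, all under the WT values of 543.9, 583.8, 631.0 and 638.2. It gave log2 changes of 0.26 in the first range (SE 0.11, edgeR adjusted p = 0.192) and -0.57 in the second (SE 0.12, edgeR adjusted p = 0.0033), a difference of -0.82 (SE 0.17, edgeR adjusted p = 0.00488).

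MT-ND2, another proton-pumping subunit, was at 10820, 11640, 12750 and 13280 CPM in KO rats 25 to 32 and at 14830, 15630, 16260 and 16740 in WT (log2 change -0.39, SE 0.08, edgeR adjusted p = 0.00405). The groups did not overlap, whereas in rats 17 to 24 they did, at 13040 to 15120 in KO and 11490 to 15590 in WT (0.10). MT-ND4 fell by 0.26 on the log2 scale in rats 25 to 32 (edgeR adjusted p = 0.0286). MT-ND1 and MT-ND5 gave -0.13 and -0.22 there without passing, and MT-ND3 gave 0.10. MT-ND6, the 1 subunit read from the other strand and the least abundant, at 47.9 to 95.3 CPM over all rats, gave -0.09 (SE 0.15).

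In complex III the mitochondrial subunit is cytochrome b. MT-CYB was at 19460 to 24010 CPM in KO and 22940 to 26120 in WT rats 25 to 32 (log2 change -0.17, edgeR adjusted p = 0.116), and at 23050 to 26450 and 20230 to 26110 in rats 17 to 24 (0.18). Neither change passed. In complex IV, MT-CO1, the catalytic subunit and the most abundant member, was at 71140 to 81870 CPM in KO and 83330 to 96620 in WT rats 25 to 32, without overlap (log2 change -0.25, SE 0.08, edgeR adjusted p = 0.0262), while MT-CO3 gave -0.06. Neither table holds a row named MT-CO2.

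MT-ATP8, a short subunit of complex V whose gene overlaps that of MT-ATP6, was at 253.1, 259.3, 321.8 and 351.0 CPM in KO and 342.4, 347.8, 381.9 and 442.6 in WT rats 25 to 32 (log2 change -0.35, SE 0.12, edgeR adjusted p = 0.0389). The highest KO value lay above the lowest pair of WT values. MT-ATP6 gave -0.22 (edgeR adjusted p = 0.0822). Of the 5 calls in this range, MT-ND4L and MT-ND2 held without any 1 rat; without WT rat 25, WT rat 31 or KO rat 28 only 2 of the 5 were left.

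The 4 genes of complex II, all nuclear, gave values below 0 in rats 25 to 32. SDHA was at 755.1, 818.5, 830.8 and 831.6 CPM in KO and 1062, 1101, 1106 and 1174 in WT (log2 change -0.46, SE 0.06, edgeR adjusted p = 0.000288), and SDHC, a membrane anchor, was at 612.4 to 709.8 in KO and 737.3 to 836.7 in WT (-0.22, SE 0.07, edgeR adjusted p = 0.029). Both groups stood apart in both genes. SDHB and SDHD gave -0.17 and -0.15 without passing. SDHA in rats 17 to 24 was at 886.5 to 924.0 in KO and 987.3 to 1124 in WT, also apart, with -0.18 (SE 0.06, edgeR adjusted p = 0.0915; DESeq2 called it).

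Among 34 tested nuclear complex I genes, 1 passed in each range, both lower, and not the same one. Complexes were assigned by symbol alone, so every NDUF symbol counts as complex I here, NDUFA4 and NDUFA4L2 included, whichever complex holds the protein. Of all genes 2.19% were lower in rats 17 to 24 and 22.1% in rats 25 to 32. The 1 of 34 thus lay near the background in the first range and far under it in the second. NDUFB8, an accessory subunit, was at 207.3, 211.2, 217.8 and 222.5 CPM in KO and 259.8, 265.4, 287.5 and 296.2 in WT rats 17 to 24 (log2 change -0.36, SE 0.06, edgeR adjusted p = 0.00218). Its groups in rats 25 to 32 overlapped widely, at 227.0 to 315.2 and 206.6 to 337.3 (-0.03, SE 0.14). NDUFS1 was at 409.3, 419.6, 423.8 and 439.1 CPM in KO and 538.0, 542.2, 550.1 and 591.1 in WT rats 25 to 32 (-0.39, SE 0.06, edgeR adjusted p = 0.000511), against 466.2 to 482.9 and 470.7 to 523.2 in rats 17 to 24. The drop of NDUFS1 in the second range thus came with WT values above, and KO values below, those of the first.

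In complex III, UQCRC2 was at 510.0, 524.5, 524.6 and 529.5 CPM in KO and 650.0, 670.2, 675.3 and 680.4 in WT rats 25 to 32 (log2 change -0.36, SE 0.05, edgeR adjusted p = 0.000503). The row named UQCRFS1P1, a symbol of the Rieske iron-sulphur protein family, gave -0.21. In complex V, ATP5F1A, ATP5F1B and ATP5F1C gave -0.31, -0.24 and -0.22 in rats 25 to 32, and the other 12 tested genes were not called; without WT rat 29 the nuclear count in this range went from 9 to 4, and without WT rat 31 to 5. SDHA, NDUFS1, UQCRC2 and ATP5F1A kept their calls throughout.

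COX7A2L was the well-read nuclear member that rose. It was at 153.7, 161.5, 179.0 and 185.0 CPM in KO and 113.4, 125.0, 126.8 and 157.5 in WT rats 25 to 32 (log2 change 0.38, SE 0.10, edgeR adjusted p = 0.0105), and at 141.5 to 160.2 and 130.6 to 134.2 in rats 17 to 24 (0.20, edgeR adjusted p = 0.0504). COX6A2, the heart and muscle form of subunit VIa, had 30, 39, 52 and 69 reads in KO and 0, 1, 2 and 3 in WT rats 25 to 32, and 5, 8, 12 and 13 against 0, 1, 2 and 3 in rats 17 to 24, where it was below the filter. It entered the test of the second range only through its KO reads, so its call there is given no weight. At no more than 2.12 CPM it was far under COX6A1, the form of most tissues, at 483.7 to 782.1 CPM. COX8BP had 4, 7, 8 and 13 reads in KO and 13, 18, 24 and 26 in WT rats 25 to 32. It entered that test through its WT reads, all of its values were under 1 CPM, and its call, lost without WT rat 29, is given no weight either. On leaving out KO rat 30 or WT rat 31, the count of nuclear members higher in this range went from 2 to 8 or 6.

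The other tissue or hypoxia forms were close to the limit of detection. COX4I2, the oxygen-sensitive form of subunit IV, was at 0.684 to 1.36 CPM over all rats, and NDUFA4L2, a HIF target, at 0.647 to 1.66; neither passed in any range. COX6B2 was at 0.502 to 1.09 CPM. COX7A1 was at 0.102 to 0.383 CPM and was not tested. COX8C had no read in any of the 16 rats. The depth shows no more than that these forms were scarce.

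**Figure D3:**
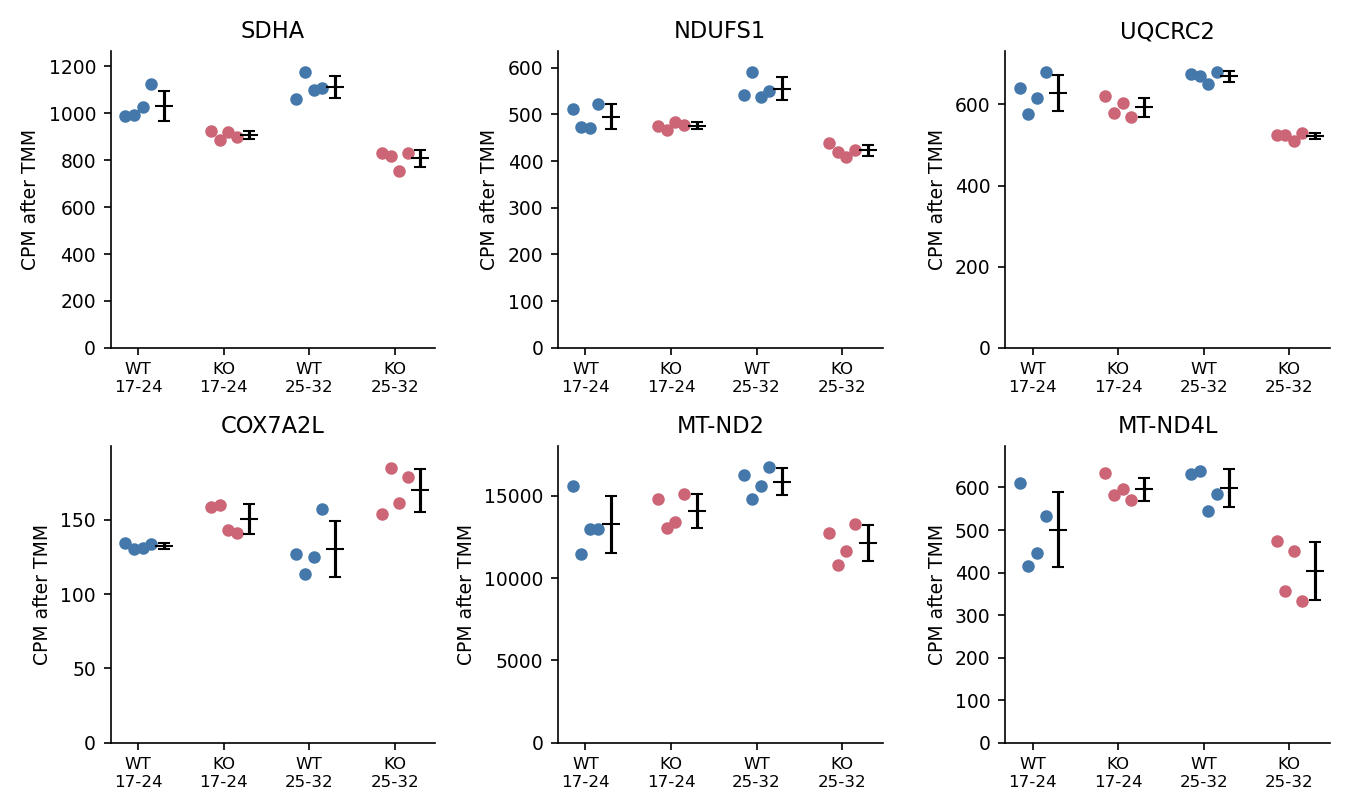
Level of 6 members in each rat (CPM after TMM scaling, axis from 0), WT blue and KO red, by number range; bars beside the points are the mean and SD of 4 rats. SDHA, NDUFS1, UQCRC2, MT-ND2 and MT-ND4L stand apart by genotype in rats 25 to 32, and COX7A2L runs the other way with 1 overlapping WT rat.

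The WT rats of the 2 ranges also differed from each other. Of 74 nuclear members 9 were higher in WT rats 25 to 32 than in WT rats 17 to 24 and none was lower, and of 12 mitochondrial members 5 were higher and none lower (edgeR contrast, where 1 nuclear and no mitochondrial member was lower at an unadjusted p under 0.05); 9.43% of all genes were lower and 11.7% higher, so the nuclear share of 12.2% higher lay near the background. Leaving out COX8BP and COX6A2, 8 of 72 were higher. Marker sums of these WT rats stood apart too, in CPM for rats 17 to 24 and then 25 to 32: proximal tubule 12770 to 14740 and 15820 to 16630, thick ascending limb and distal tubule 3825 to 4299 and 2596 to 3283, collecting duct 1425 to 1635 and 1016 to 1189, and podocyte 788.6 to 992.9 and 508.1 to 654.4. Called markers of 1 list could run opposite ways: SLC22A6 gave 1.15 and SLC7A13 -1.96 in the proximal tubule list, AQP3 0.57 and HSD11B2 -0.52 in the collecting duct list. The part of the markers in the members' differences was not tested. Among the members SDHC had the smallest p-value, at 557.7 to 626.2 CPM in WT rats 17 to 24 and 737.3 to 836.7 in WT rats 25 to 32 (log2 change 0.43, SE 0.06, edgeR adjusted p = 9.69e-05), and NDUFB3 gave 0.50. MT-ND4 gave 0.36 (edgeR adjusted p = 0.0106). This comparison shares its WT rats 25 to 32 with the comparison of KO and WT in that range. It depended on scaling: with the total without mitochondrial genes, 3 nuclear and 1 mitochondrial members were higher and 2 nuclear members lower, and calls among all genes went from 1117 lower and 1386 higher to 2026 lower and 815 higher. Leaving out WT rat 27 gave 15 nuclear members higher, and leaving out WT rat 19, 21, 25, 29 or 31 or KO rat 18 gave 4; without WT rat 19 or WT rat 31 the mitochondrial count was 1, without WT rat 25 or 29 it was 2, and without WT rat 21 it was 3.

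Genes around the chain were counted from lists. The list named for the TCA cycle, which feeds NADH and succinate to the chain, also held enzymes that bring pyruvate to the cycle. In rats 25 to 32, 13 of its 18 tested genes (72.2%) were lower and none higher. Among all genes 22.1% were lower and 21.8% higher there, and the median log2 change was -0.31 for the list, against -0.01. Over all rats 10 (55.6%) of the list were lower, against 12.3% of all genes. Pyruvate carboxylase (PC), not itself a step of the cycle, had the largest change of the list. It was at a mean of 547.4 CPM in KO and 1060 in WT rats 25 to 32 (-0.95, edgeR adjusted p = 3.1e-05). PC was also the 1 gene of the list called in rats 17 to 24 (-0.34), so no enzyme of the cycle itself was called there. The electron carriers outside the chain had 6 of 15 (40.0%, against the same 22.1%) lower and 1 higher in rats 25 to 32, or 3 and 3 with the total without mitochondrial genes, led by ETFDH, which passes electrons from fatty acid oxidation to ubiquinone (-0.57, edgeR adjusted p = 6.05e-05).

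The lists that follow are counts in rats 25 to 32, where 22.1% of all genes were lower and 21.8% higher. Of 36 genes for the copying, transcription and translation of mitochondrial DNA, 12 (33.3%) were lower and 1 (2.78%) higher (median -0.14), with POLG2, the accessory subunit of the mitochondrial DNA polymerase, at -0.63 and TOP1MT, the mitochondrial topoisomerase, at 0.33. The mitochondrial ribosome had 4 of 71 (5.63%) lower and 3 (4.23%) higher (median 0.05), with MRPS31 at -0.28 and MRPL23 at 0.50. Assembly factors of complexes II to V had 8 of 27 (29.6%) lower (COA5 at -0.67) and 1 higher (UQCC2 at 0.39), and those of complex I had 1 of 15 in each direction (NDUFAF1 at -0.24 and NDUFAF5 at 0.23). Regulators of mitochondrial biogenesis had 8 of 17 (47.1%) lower and 2 (11.8%) higher: PPARA, a receptor that drives fatty acid oxidation genes, was at a mean of 10.9 CPM in KO and 37.9 in WT (-1.79, edgeR adjusted p = 0.000839), and MYC at 26.3 and 5.47 (2.27, edgeR adjusted p = 6.37e-07). These counts were not stable. Without KO rat 28 the regulators had 3 lower, without WT rat 27 they had 5, and no rat left out gave more than 7. Ribosome genes higher numbered 11 without KO rat 30, 8 without WT rat 31 and 1 without WT rat 25, 27 or 29 or KO rat 28 or 32, and ribosome genes lower numbered 2 without WT rat 29 or KO rat 28 or 30. Assembly factors of complexes II to V higher numbered 6 without KO rat 30, 4 without WT rat 31 and 0 without KO rat 28. Both complex I assembly calls were lost without WT rat 27 or 29 or KO rat 28. The lower call was also lost without WT rat 31, the higher one without WT rat 25 or KO rat 26 or 32, and mitochondrial DNA expression genes higher numbered 2 without KO rat 26. With the total without mitochondrial genes, the counts lower and higher were 4 and 4 for mitochondrial DNA expression, 0 and 24 for the ribosome and 4 and 7 for assembly of complexes II to V, and 2 regulators were lower. Each of these lists in rats 17 to 24 had at most 1 gene called in either direction. MYC was again higher there (1.41).

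Marker sums of several cell types moved with genotype in the same libraries. In rats 25 to 32 the proximal tubule markers (9 of 10 listed) summed to 9726 to 11210 CPM in KO and 15820 to 16630 in WT, and 7 of these 9 were lower. Thick ascending limb and distal tubule markers (4 of 7 listed) summed to 4073 to 4912 in KO and 2596 to 3283 in WT, macrophage markers to 255.2 to 358.9 and 109.7 to 132.4, and fibroblast markers to 439.7 to 498.8 and 205.1 to 251.2. Collecting duct markers summed to 1311 to 1465 in KO and 1016 to 1189 in WT, lymphocyte markers to 69.96 to 97.69 and 37.29 to 51.17, and endothelial markers to 212.7 to 259.5 and 246.2 to 274.9. The collecting duct list did not move as 1: HSD11B2 was higher in KO (log2 change 0.50) and AQP3 lower (-0.54), both called in edgeR. Proximal tubule sums in rats 17 to 24 were 11160 to 11940 in KO and 12770 to 14740 in WT. Macrophage sums in that range were 126.3 to 145.8 in KO and 78.27 to 109.1 in WT, fibroblast sums 300.9 to 409.9 and 234.5 to 259.8, and lymphocyte sums 48.07 to 53.53 and 27.14 to 42.89, all apart, while those of the thick ascending limb and distal tubule overlapped at 4078 to 4483 and 3825 to 4299. The part of these shifts in the members' changes was not tested.

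Coding length was a feature that the choice of members did not use. Of 71 nuclear members tested in rats 25 to 32 that have a coding length in the mouse annotation (GENCODE vM21; 95.9% of them), 5 of the 10 with at least 1000 coding bases were lower, and 2 of the 61 shorter ones. Of all genes in that range 22.1% were called lower and 21.8% higher. The median log2 change was -0.22 for the long and 0.03 for the short genes. In rats 17 to 24, where 10 of 10 long and 52 of 60 short genes were below 0, the medians were -0.12 and -0.09. Across genes, which are not independent replicates, the Spearman correlation of log2 change with coding length was -0.50 over 71 genes in rats 25 to 32 and -0.29 over 70 in rats 17 to 24. The libraries are shared by all points, and long transcripts carry more reads. Length was looked up for members only, so whether other genes show the same trend was not tested.

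**Figure D4:**
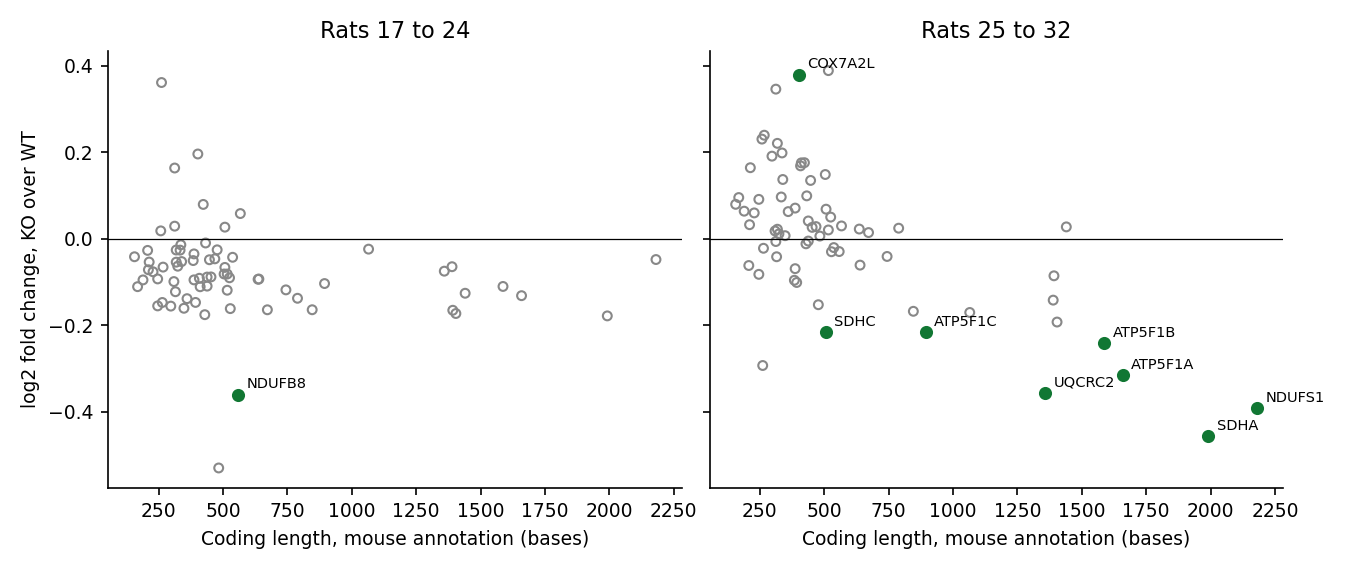
Log2 fold change (KO over WT) of nuclear members against their coding length in the mouse annotation, in rats 17 to 24 (left) and 25 to 32 (right); filled and named points passed an edgeR adjusted p of 0.05, and COX6A2 is left out. Named long genes at right (UQCRC2, ATP5F1B, ATP5F1A, SDHA, NDUFS1) lie below 0, while at right COX7A2L lies above.

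Promoters were read for 66 of the 78 nuclear members with a rat read from RefSeq (GRCr8, 250 bases before to 50 after the start). They were searched on both strands for short motifs known to bind regulators of respiratory genes: GCGCATGCG for NRF1, CCGGAAGTG for ETS factors such as GABPA, TCAAGGTCA for the estrogen-related receptors and AAGATGGCG for YY1. At least 1 was found in 28.8% of the members' windows, against 5.29% of 33469 rat promoters. YY1 had the most matches (13.6% against 1.73%), followed by NRF1 (9.1% against 1.52%), while ETS letters were in 4.5% against 1.89% and estrogen-related receptor letters in 3.0% against 0.43%. Of the 7 members lower in rats 25 to 32 with a window, 0 held any of the 4 motifs, nor did those of COX7A2L and COX6A2. The 19 windows with a match belong to members not called in that range or not tested. The windows of the gene with the largest fall at more than 1 CPM and of the gene that rose at such a level are shown with the first transcribed bases in capitals, and that of UQCRC1, a core protein of complex III and the 1 member with both the NRF1 and the YY1 letters, with those letters in capitals; all 3 were chosen after their values or matches were seen. They lie at chr1:30764303-30764602 on the plus strand for SDHA, at chr6:16936324-16936623 on the plus strand for COX7A2L and at chr8:118467973-118468272 on the plus strand for UQCRC1.
SDHA: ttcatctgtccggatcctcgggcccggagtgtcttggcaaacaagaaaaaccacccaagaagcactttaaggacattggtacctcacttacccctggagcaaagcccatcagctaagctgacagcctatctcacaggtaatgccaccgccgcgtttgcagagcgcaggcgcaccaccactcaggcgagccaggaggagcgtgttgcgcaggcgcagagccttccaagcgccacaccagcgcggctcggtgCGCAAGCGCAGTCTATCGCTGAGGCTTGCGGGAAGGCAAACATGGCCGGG
COX7A2L: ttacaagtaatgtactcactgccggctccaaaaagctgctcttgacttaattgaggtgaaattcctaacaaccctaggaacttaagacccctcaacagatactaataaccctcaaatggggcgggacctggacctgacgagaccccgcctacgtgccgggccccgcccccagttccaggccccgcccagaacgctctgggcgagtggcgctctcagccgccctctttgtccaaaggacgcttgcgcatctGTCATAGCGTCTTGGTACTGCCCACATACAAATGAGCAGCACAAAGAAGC
UQCRC1: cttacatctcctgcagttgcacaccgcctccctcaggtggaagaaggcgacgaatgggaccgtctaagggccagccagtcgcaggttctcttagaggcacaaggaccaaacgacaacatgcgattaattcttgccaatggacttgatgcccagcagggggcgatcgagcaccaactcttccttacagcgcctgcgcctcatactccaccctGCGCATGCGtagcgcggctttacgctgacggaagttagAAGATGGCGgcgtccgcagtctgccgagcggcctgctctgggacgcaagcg

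In the mouse no nuclear member (of 81) and no mitochondrial member (of 36) was called in limma. Of those 36, 12 are subunit genes, 3 of them under 1 CPM, and 14 tRNA symbols had no read in any mouse. Members with so few reads could hardly be called on log2(value + 1). At an unadjusted p under 0.05, 4 nuclear and 2 mitochondrial members were lower and none higher. Of all genes, 0.817% were called lower and 3.50% higher (142 and 609, or 84 and 1093 with the total without mitochondrial genes). The recovered reads gave 1 nuclear and 1 mitochondrial member lower in edgeR and 2 and 1 in DESeq2, and none higher in either. The mitochondrial member was an rRNA or tRNA symbol in both, so no mitochondrially encoded subunit was called. The median log2 change was -0.03 over the nuclear members, 55 of 81 of them below 0, but 0.01 with that other scaling, and the 4 SDH genes lay between -0.15 and -0.07. SDHC was at 5.94 to 6.54 in KO and 6.67 to 7.72 in WT on the table's scale, with every KO mouse under every WT mouse on that scale but not in CPM, where KO mouse 5, at 326.2, lay above WT mice 4 and 7, at 318.5 and 314.5 (-0.15, SE 0.06, limma adjusted p = 0.192), and DESeq2 called it (-0.20, DESeq2 adjusted p = 0.0384).

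The best-read mitochondrial genes of the mouse gave values below 0 that did not pass. MT-ND1 was at 7646 to 10080 CPM in KO and 9524 to 11750 in WT and gave -0.25 (SE 0.12, limma adjusted p = 0.322), with MT-ND2 at -0.21, MT-ND4 at -0.22, MT-CYB at -0.18, MT-ND5 at -0.08 and MT-CO1 at -0.07. The rRNAs MT-RNR1 and MT-RNR2 were at 391.9 to 588.3 and 564.6 to 951.0 CPM, in libraries selected for poly(A) RNA. Of the 22 tRNA symbols, 14 had no read in any mouse. COX6A2 was at 0.741 to 1.69 CPM in KO and 0.459 to 1.08 in WT mice, with overlap. The lists around the chain had no gene higher in the mouse and at most 1 lower each (UQCC1, COQ8A, MTIF3, GABPA and MRPS27), none of 19 in the TCA cycle list and of 17 complex I assembly factors. Macrophage markers summed to 172.7 to 211.1 CPM in KO and 109.6 to 121.6 in WT mice, fibroblast markers to 234.3 to 264.7 and 125.5 to 155.2, and lymphocyte markers to 29.8 to 36.5 and 21.61 to 23.46. Thick ascending limb and distal tubule markers summed to 9833 to 10870 in KO and 7989 to 9275 in WT mice, also apart, and proximal tubule markers to 14490 to 15320 and 14090 to 18950, with overlap. Their part was not tested.

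Some mitochondrial genes were almost without reads in the mouse, which bears on every mitochondrial sum there. Per kilobase, mean levels over the 8 mice were 22051 CPM for MT-CO1 and 17823 for MT-CYB. They were 22.1 for MT-ATP6, 7.56 for MT-CO3, 2.07 for MT-ND4L, 1.87 for MT-ND3 and 0.414 for MT-ATP8. In the rats MT-ATP8 was at 253.1 CPM or more and MT-CO3 at 22070 to 31580. In the mouse annotation (GENCODE vM21, GRCm38), all 100-base windows of each mitochondrial gene were looked up in the transcripts of the other chromosomes, on both strands. MT-CO3 shared 99.9% of its windows, MT-ATP6 99.5%, MT-ND4L 98.5% and MT-ND3 97.6%, each with an unprocessed pseudogene on chromosome 1 (Gm28437, Gm10925, Gm10222 and Gm28438). MT-CO1 shared 30.8%, MT-ND4 60.8% and MT-ND2 3.2%, and MT-CYB, MT-ND1 and MT-ND5 shared 0.

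The gene mt-Nd4l (chrM:9877-10173 of GRCm38, plus strand, 297 bases) is shown as the mouse counterpart of the mitochondrial member with the lowest value in rats 25 to 32, with the bases outside the stretch shared with Gm10222 in capitals. The gene mt-Atp8 (chrM:7766-7969, plus strand, 204 bases), which shared no window and yet had 1 to 5 reads a mouse, is shown with the 43 bases that also belong to mt-Atp6 in capitals, or 21.1% of the gene. Windows were compared with annotated transcripts only, not with the sequence between them, and the part of sequence sharing in these low values was not tested.
mt-Nd4l: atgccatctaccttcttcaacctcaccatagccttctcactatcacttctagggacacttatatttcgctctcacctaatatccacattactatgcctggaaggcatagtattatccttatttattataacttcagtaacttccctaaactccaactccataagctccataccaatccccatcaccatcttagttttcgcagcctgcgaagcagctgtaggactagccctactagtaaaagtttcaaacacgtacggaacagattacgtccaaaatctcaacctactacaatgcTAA
mt-Atp8: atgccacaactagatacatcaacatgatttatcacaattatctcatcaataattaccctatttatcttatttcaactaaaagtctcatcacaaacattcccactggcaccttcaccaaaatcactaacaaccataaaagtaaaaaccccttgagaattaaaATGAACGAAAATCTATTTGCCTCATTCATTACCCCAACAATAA

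**Figure D5:**
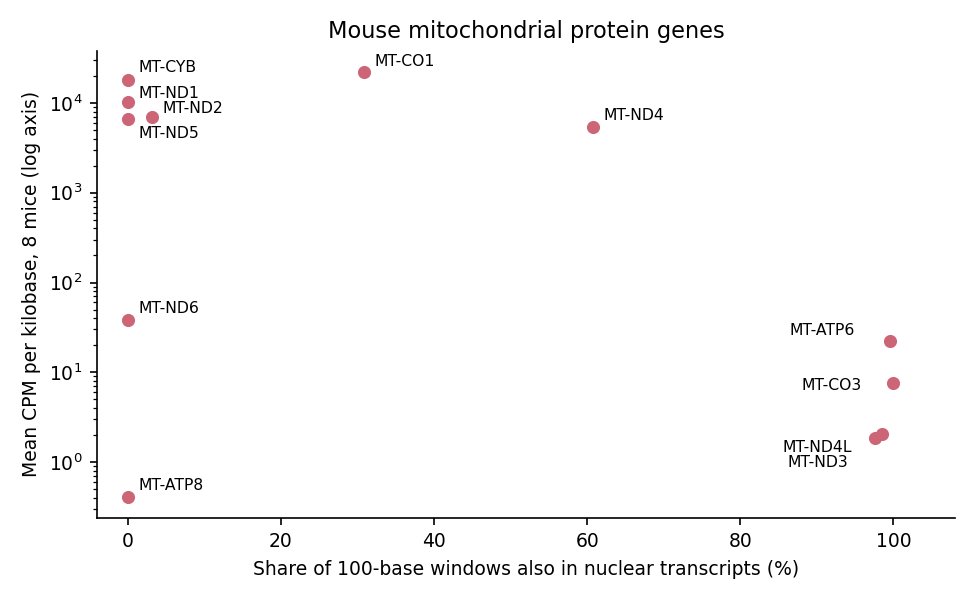
Mean level of 12 mitochondrial protein genes over 8 mice (CPM per kilobase, log axis) against the share of their 100-base windows also found in transcripts of other chromosomes. MT-CO3, MT-ATP6, MT-ND4L and MT-ND3, with 97.6% or more shared, lie at 22.1 or less; MT-ATP8 and MT-ND6 are low with none shared.

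Whether the change differed between species was tested over the 11216 symbols that both tests held, with the rat reads scaled like the mouse table. COX7A2L alone of 67 nuclear and 12 mitochondrial members differed, with a more positive change in the rat (0.29, SE 0.08, limma adjusted p = 0.0482). Of all symbols 1.36% differed in the negative and 1.80% in the positive direction. At an unadjusted p under 0.05, 1 nuclear member was more negative and 1 mitochondrial member more positive in the rat. The call was kept in edgeR on the reads of both species, and was lost on leaving out any 1 of 20 of the 24 animals (highest adjusted p 0.117). The 4 without which it held were WT rats 17 and 31 and KO rats 22 and 24. COX7A2L itself gave -0.05 in the mouse (SE 0.03, limma adjusted p = 0.544). MT-ATP6, MT-ATP8, MT-CO3, MT-ND3, MT-ND4L and MT-ND6 were at 0.496 or less on the table's scale in every mouse. On log2(value + 1) they could show little change there, so the test says little about them. The rat side pooled both number ranges, whose mitochondrial medians were 0.17 (rats 17 to 24) and -0.22 (rats 25 to 32).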

How the data were processed

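RNA from 8 mice and 16 rats was sequenced as poly(A)-selected, stranded libraries with paired ends. The submitters' processing notes name bcl2fastq 2.20, STAR 2.7.3, DESeq2 1.24.0 and R 3.6.1 and the builds rn5 and mm10, without roles. The deposited mouse signal is a scaled value, reads plus 0.5 divided by each library's 75th percentile plus 0.5, and 99.0% of values came out as whole reads within 0.01. The deposited rat table holds estimated counts with 0.1667 added to each; 97.7% were whole within 0.01, and they were rounded. Tables use human-style symbols; COX8BP, COX7A2P2 and UQCRFS1P1 are kept as given, and reads of near-identical copies cannot be assigned with certainty. In the mouse COX6C, NDUFA11, NDUFAB1, NDUFB11, NDUFB4, NDUFS6 and MT-ATP6, and in the rat 11 members, were not whole in every library.

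Mouse values were tested on log2(value + 1) with limma 3.58.1 over 17376 symbols; such fold changes understate those of low genes. Rat reads were tested with edgeR 4.0.16 (TMM, quasi-likelihood, filterByExpr) in R 4.3.3, over all 16 rats, within each number range, and for the difference between ranges. Species were compared with limma after giving rat reads the mouse scaling. DESeq2 1.42.0, other scalings, filters and pseudocounts and each animal left out were alternatives. P-values were adjusted by Benjamini-Hochberg over all genes tested. Reads of libraries of 1 group always differed beyond counting noise, the lowest ratio of chi-square to degrees of freedom being 12.7 in mice and 8.85 in rats. Each library is from 1 animal.

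The members and the lists were chosen with earlier results of these data known, so no list is independent evidence. By rule, the genes named were the mitochondrial members, the 4 SDH genes, the tissue and hypoxia isoforms, for each complex the called nuclear member with the largest change in each direction, and the same for each list; other called members, such as ATP5F1B, ATP5F1C, UQCRFS1P1 and NDUFB3, and NDUFB8, NDUFS1 and UQCRC2 outside the comparisons that named them, were added after their values were seen. Promoters were to be shown where a called member's window held a motif, and none did. The SDs given are across animals, and the SEs come from fits that include variation between animals. Depth bears on counting error only.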

Additional observations from a re-analysis of the deposited data

Results flagged for a closer look

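In 4 of 186 groups of 4 animals examined, the extreme animal stood apart by more than the 95% limit of Dixon's ratio, where chance gives about 1 in 20. MT-CO3 in KO mouse 5 was at 0.0724 on the table's scale, against 0.126 to 0.135 in the other KO mice (ratio 0.846). SDHB in KO mouse 8 was at 7.75, against 8.70 to 8.79 (ratio 0.909). ATP5F1B in WT rat 19 was at 5247 CPM, against 5529 to 5582 in the other WT rats 17 to 24 (ratio 0.842). MT-ND6 in WT rat 31 was at 95.3 CPM, against 62.7 to 66.9 in the other WT rats 25 to 32 (ratio 0.87).

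The KO effect differed between the rat number ranges in the edgeR interaction for 9 members, each more negative in rats 25 to 32. For the mitochondrial genes the differences were -0.82 for MT-ND4L, -0.63 for MT-ATP8, -0.48 for MT-ND2, -0.41 for MT-ND4, -0.40 for MT-CO1 and -0.37 for MT-ND1 (edgeR adjusted p from 0.00488 to 0.0453). For the nuclear genes they were -0.34 for NDUFS1, -0.28 for UQCRC2 and -0.27 for SDHA (edgeR adjusted p from 0.00738 to 0.0334). The share of all genes more negative there was 7.64%. Several of these calls were fragile. Those of MT-ND4, MT-ND1 and SDHA were lost on leaving out any 1 of 12, 11 and 10 rats. MT-CO1 lost its call without any 1 of 4 rats, UQCRC2 without any 1 of 3, and MT-ATP8 and MT-ND2 without KO rat 28. With the total without mitochondrial genes, MT-ND4, MT-ND1, SDHA and UQCRC2 were not called. MT-ND4L, whose 4 KO rats lay above 3 of the 4 WT rats in the first range and below all of them in the second, is the member to look at first. What separates the ranges is not stated, so age, sex, litter, batch and any placebo pellet cannot be told apart. The effect on COX7A2L differed between species by 0.29 (limma adjusted p = 0.0482).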

How the results depend on the processing

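No called member changed direction under any alternative. Medians that lay near 0 did change sign: with the total without mitochondrial genes the nuclear and mitochondrial medians over all rats went from -0.03 and -0.02 to 0.07 and 0.09 (0.03 and 0.04 with upper quartile scaling), and the nuclear median in the mouse from -0.03 to 0.01. The gap of mitochondrial and nuclear medians ran from -0.02 to 0.09 over all rats and from -0.14 to 0.03 in the mouse, across 0. In the mouse, edgeR on recovered reads gave 1 nuclear and 1 mitochondrial member lower and a mitochondrial median of -0.20 (-0.1955), and DESeq2 gave 2, 1 and -0.20 (-0.2002). The medians are of subunit genes, while the 1 mitochondrial member called was an rRNA or tRNA symbol in both. Leaving out each mouse gave 0 to 1 nuclear members lower, 1 without WT mouse 7. Over all rats, the total without mitochondrial genes gave 2 nuclear members lower and 2 higher, upper quartile scaling 4 lower, and DESeq2 and no filter 2 higher each. In rats 17 to 24 the total without mitochondrial genes gave 1 nuclear and 1 mitochondrial member higher, and DESeq2 gave 7 nuclear members lower, 2 higher and 1 mitochondrial member higher. Leaving out each rat there gave 1 to 3 nuclear members lower and 0 to 3 mitochondrial members higher. In rats 25 to 32 the total without mitochondrial genes gave 5 nuclear members lower, 20 higher, 2 mitochondrial members lower and a mitochondrial median of -0.07 (-0.0657), and each rat left out gave 4 to 9, 2 to 8 and 2 to 6. For the difference between ranges that scaling gave 1 nuclear member more negative and 5 more positive, and each rat left out gave 1 to 3, 0 to 4 and 1 to 8 mitochondrial members more negative. Between WT ranges it gave 2 nuclear members lower, 3 higher and 1 mitochondrial member higher, and each rat left out 0 to 1, 4 to 15 and 1 to 6. Each animal left out gave 0 to 1 nuclear members differing between species. The cause of these moves was not tested.

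Among all genes the mouse calls of 142 lower and 609 higher became 383 and 815 in edgeR, 584 and 936 in DESeq2 and 236 and 465 with a mean value of at least 0.1. In rats 17 to 24 DESeq2 called 467 lower and 749 higher, against 254 and 589, and over all rats the number range as a covariate gave 2204 and 2239, against 1420 and 1760. The comparisons of ranges with each rat left out, the WT ranges and the species were added after seeing the data. No paired analysis was possible because the KO and WT animals share no replicate numbers. Members under 1 CPM are limited by depth.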

Other observations

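The rat table names no MT-CO2, the second core subunit of complex IV, but holds a row named MTCO2P12, the symbol of a nuclear pseudogene copy of that gene, with 1.20% to 2.33% of all reads. It is not a member by name. It was at 16520, 18930, 19810 and 23280 CPM in KO and 12640, 14640, 16650 and 17910 in WT rats 25 to 32 (log2 change 0.35, SE 0.13, edgeR adjusted p = 0.0469), with overlap. In rats 17 to 24 the log2 change was 0.22 (edgeR adjusted p = 0.191), and the difference between ranges was 0.12 (edgeR adjusted p = 0.642). In rats 25 to 32 its direction was opposite to that of the called mitochondrial members. Which locus gave these reads was not tested.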
